A study of Drosophila melanogaster with 20 samples.

Results

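Wing imaginal discs of Drosophila melanogaster that carried EGFR and psqRNAi were compared at day 11 of tumor growth and at 12 hr. Members of the comparison were chosen from the sample titles alone, and they were 8 of the 20 arrays of the series. EP_LNT is EGFR+psqRNAi at day 11, which the labels call late-neoplastic tumors (n = 4). EP_Ctrl is the same genotype at 12 hr (n = 4), so both groups carry the EGFR and the psqRNAi constructs and differ in time. EP_EHT, EGFR+psqRNAi tumors at day 4 (n = 4), is set beside them. Each sample pooled the RNA of about 20 pairs of wing discs, and the labels call the replicates biological. The driver, the parts of the disc that express the constructs and the sex of the larvae are not stated in the labels. Discs of day 11 without the constructs were not analysed here, so the age of the disc and the growth of the tumor cannot be told apart in any difference below. The question of the comparison is which transcripts separate a late tumor from the disc that it grew from.

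The wing disc is a folded sheet of epithelium in the larva that forms the wing and the notum of the adult. EGFR is a receptor tyrosine kinase that signals through Ras and MAP kinase and promotes growth and survival of disc cells. psq encodes the BTB-domain DNA-binding protein Pipsqueak, which works with Polycomb group repressors and the GAGA factor Trl. Fly tumors of discs are known for JNK signalling, for the relaxin-like hormone Ilp8, which delays the onset of metamorphosis, and for lost epithelial order.

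All values are log2 RMA values of Affymetrix arrays, so a difference of 1 is a doubling. The medians of the arrays lay between 7.29 and 7.39. A gene is called here when its adjusted p is below 0.05 in limma, with Benjamini-Hochberg adjustment over all 13402 genes tested. The median standard error of the EP_LNT minus EP_Ctrl log2 difference was 0.0929. With 4 arrays a group, that number sets the precision. EP_LNT replicate 4 stood apart from the other 3 day 11 arrays and is described in full at the end. Its correlation with them over all genes was 0.975 to 0.986, against 0.983 to 0.994 among the other 3, and results that rest on it are given with and without it.

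The targeted genes moved little. psq had values of 10.35, 10.54, 10.53 and 10.67 on the EP_LNT arrays, against 10.87, 10.62, 10.70 and 10.93 on the EP_Ctrl arrays. These ranges overlapped, with EP_LNT replicate 4 above 1 of the EP_Ctrl arrays. The log2 difference was -0.26 ± 0.09 (SE, adjusted p = 0.0474, limma), and it missed the threshold when any 1 of EP_LNT replicates 1, 2 or 3 or of EP_Ctrl replicates 1, 3 or 4 was left out, with values of -0.20 to -0.28. It also missed it in a fit of the 2 groups alone (adjusted p = 0.0932), with E_EHT replicate 1 kept in the fit (0.266), with further quantile normalization (0.0524) and with arrays centred on their medians (0.0767). Both groups carry the RNAi, and the labels do not say which stretch of psq the array probes or the hairpin cover. Egfr read 12.65, 12.71, 12.75 and 12.87 on the EP_LNT arrays and 12.57, 12.59, 12.74 and 12.37 on the EP_Ctrl arrays, a log2 difference of 0.18 ± 0.10 that was not called (adjusted p = 0.251).

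Of the 13402 genes, 2963 (22.1%) were called: 1618 (12.1%) were higher and 1345 (10.0%) lower in EP_LNT than in EP_Ctrl. Most of the called differences were small. Their median was 0.44 among the genes that rose and -0.39 among those that fell, and the median over all genes tested was 0.01. At least 2-fold changes were found in 249 genes that rose (1.86% of all) and 193 that fell (1.44%), and changes of at least 8-fold in 9 and 17 genes. The arrays of the groups did not overlap for 3200 genes (23.9%), 1725 of them higher (12.9%) and 1475 lower (11.0%). Without EP_LNT replicate 4, 1806 genes were higher (13.5%) and 1557 lower (11.6%).

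**Figure D1:**
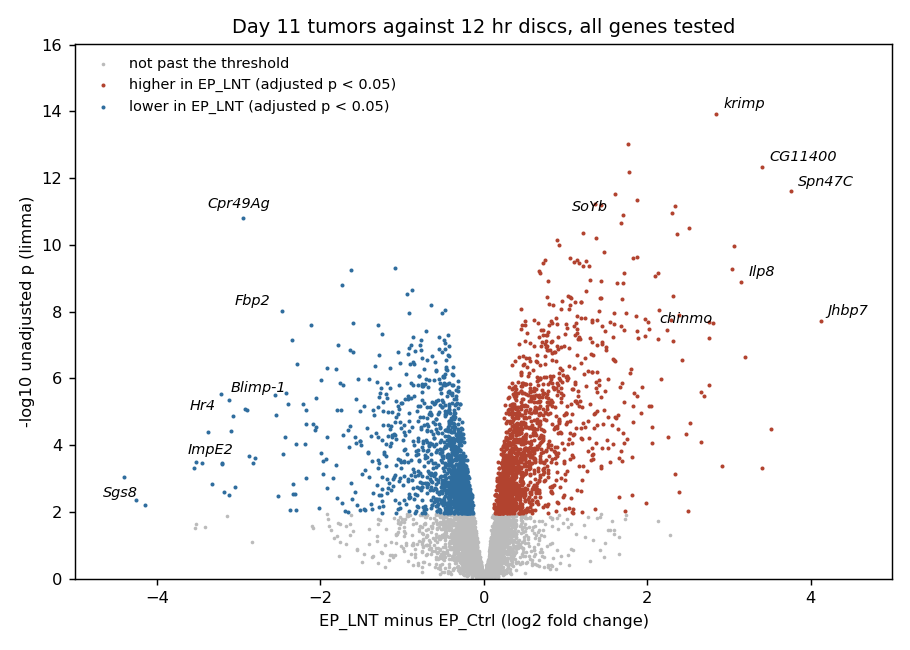
Each point is 1 of the 13402 genes, with the EP_LNT minus EP_Ctrl log2 fold change on the x axis and the -log10 of the unadjusted limma p on the y axis; red points were higher and blue points lower at an adjusted p below 0.05. The largest rise is Jhbp7 at 4.12 and the largest fall Sgs8 at -4.40, while krimp, at 2.84, has the lowest p among the genes named on the plot.

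The largest rise among the called genes with no overlap of arrays was that of Jhbp7, a member of the juvenile hormone binding protein family. It read 11.99, 11.48, 11.47 and 10.33 in EP_LNT, against 7.06, 6.76, 6.62 and 8.34 in EP_Ctrl, a 17.4-fold difference (log2 4.12 ± 0.41, adjusted p = 2.72e-06). Replicate 4 was the lowest of the tumors. A relative in the same family, Jhbp1, rose 6.71-fold. Spn47C, a serpin (a family of serine protease inhibitors), had 8.95, 8.84, 8.75 and 7.79 in EP_LNT and 5.06, 4.70, 4.53 and 5.0 in EP_Ctrl, a 13.6-fold rise (adjusted p = 6.64e-09). BomS6, a Bomanin peptide of the humoral immune response, rose 11.5-fold, but its EP_LNT values of 9.47, 8.76, 7.99 and 6.06 were spread widely, and its log2 difference of 3.52 became 4.19 without replicate 4. Tsp42El, a tetraspanin of the cell membrane, rose 6.34-fold, with 10.05 on replicate 4 against 11.87 to 12.02 on the other tumor arrays.

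The uncharacterised gene CG11400 rose 10.6-fold and was among the most even of the large changes, with 10.80, 11.04, 11.02 and 11.12 in EP_LNT and 7.42, 7.64, 7.76 and 7.54 in EP_Ctrl (adjusted p = 2.02e-09). CG15005 rose 9.16-fold, and here replicate 4 was the highest tumor array at 10.58. CG43103, CG13046, CG10559, CG9192, CG10126 and CG34437 complete the uncharacterised genes among the 15 largest rises, at 8.32-, 8.21-, 7.01-, 6.76-, 6.73- and 6.46-fold. Replicate 4 was the lowest tumor array for all 6. krimp, which encodes a Tudor protein of the piRNA pathway, rose 7.17-fold with tumor values of 8.87, 9.22, 9.15 and 8.97 and disc values of 6.39, 5.89, 6.34 and 6.22.

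The largest fall was that of Sgs8, a glue protein gene of the salivary gland, with 5.52, 7.56, 9.22 and 7.88 in EP_LNT and 10.31, 12.83, 13.01 and 11.64 in EP_Ctrl (21.2-fold lower, adjusted p = 0.00715). Its tumor values were spread from 5.52 to 9.22, and the difference of -4.40 was -3.73 without EP_LNT replicate 1. ImpE2, an ecdysone-inducible gene that disc epithelia express around eversion, read 10.0, 8.35, 8.71 and 12.15 in EP_LNT against 13.37, 13.31, 13.26 and 13.42 in EP_Ctrl. It was 11.6-fold lower with all 4 tumor arrays (log2 -3.54 ± 0.82, adjusted p = 0.00453), and its log2 difference was -4.32 without replicate 4. The serpin genes Spn43Aa and Spn100A were 10.3- and 9.32-fold lower, and for Spn43Aa the log2 difference of -3.37 was -4.05 without replicate 4. Hr4, an orphan nuclear receptor of the ecdysone cascade, had 6.43, 6.20, 6.48 and 7.58 in EP_LNT and 9.79, 9.64, 9.50 and 10.02 in EP_Ctrl, 8.37-fold lower. Its log2 difference of -3.07 was -2.22 when the probe sets of the gene were averaged. Arrays without overlap were a condition for naming the 15 largest rises and falls, so the separation of the groups for these 5 genes is not a further result.

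Genes known from the gut, the lysozyme LysS and the serine proteases yip7, Jon65Aiii and Jon65Aiv, were also among the falls. In the list of gut markers given further on, 18 of 22 members were not called. LysS was even among the tumors, at 7.09, 6.89, 6.82 and 7.34 against 10.61, 11.55, 10.35 and 9.42 in EP_Ctrl (10.9-fold lower, adjusted p = 0.00348). The proteases were not: Jon65Aiii had 11.91, 6.56, 8.28 and 11.84 in EP_LNT against 13.04, 13.28, 13.12 and 12.47 in EP_Ctrl. Replicates 1 and 4 lay close to the 12 hr discs and replicates 2 and 3 far below them. The log2 difference of Jon65Aiii was -3.33 with all arrays, -2.30 without EP_LNT replicate 2, -4.06 without replicate 4 and -4.08 without replicate 1. The difference of yip7 was -3.52 with all arrays, -2.64 without replicate 2 and -4.23 without replicate 4. That of Jon65Aiv was -3.04, and it was -3.69, -2.08 and -3.76 without replicates 1, 2 and 4 in turn. In a fit of the 2 groups alone, Jon65Aiii and Jon65Aiv missed the threshold (adjusted p = 0.0777 and 0.0812). Vajk2 and Vajk3 were 8.71- and 8.52-fold lower, and Vajk3 had a log2 difference of -3.09 that was -2.44 without EP_Ctrl replicate 4. The remaining names among the 15 largest falls, CG8664, CG42500, CG31789, CG14302 and the late 71E puff gene Eig71Ee, were 9.21-, 9.20-, 9.04-, 8.69- and 17.7-fold lower. Several of these calls hung on single arrays. Eig71Ee (log2 -4.15) missed the threshold with a replicate block (adjusted p = 0.0513) and without EP_LNT replicate 1 or 2 or EP_Ctrl replicate 2, 3 or 4 (up to 0.0941), and it was -4.86 without EP_Ctrl replicate 1. CG14302 (-3.12) missed it without EP_LNT replicate 2 or 3 or EP_Ctrl replicate 2 (up to 0.0677), and was -3.71 and -3.74 without EP_LNT replicates 1 and 4. CG31789 (-3.18) was -1.97 without EP_LNT replicate 2 and -3.88 without replicate 1, and CG8664 (-3.20) was -3.97 without EP_Ctrl replicate 4. The 2-group fit also ended the calls of CG14302 and CG31789 (adjusted p = 0.0617 and 0.0901).

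**Figure D2:**
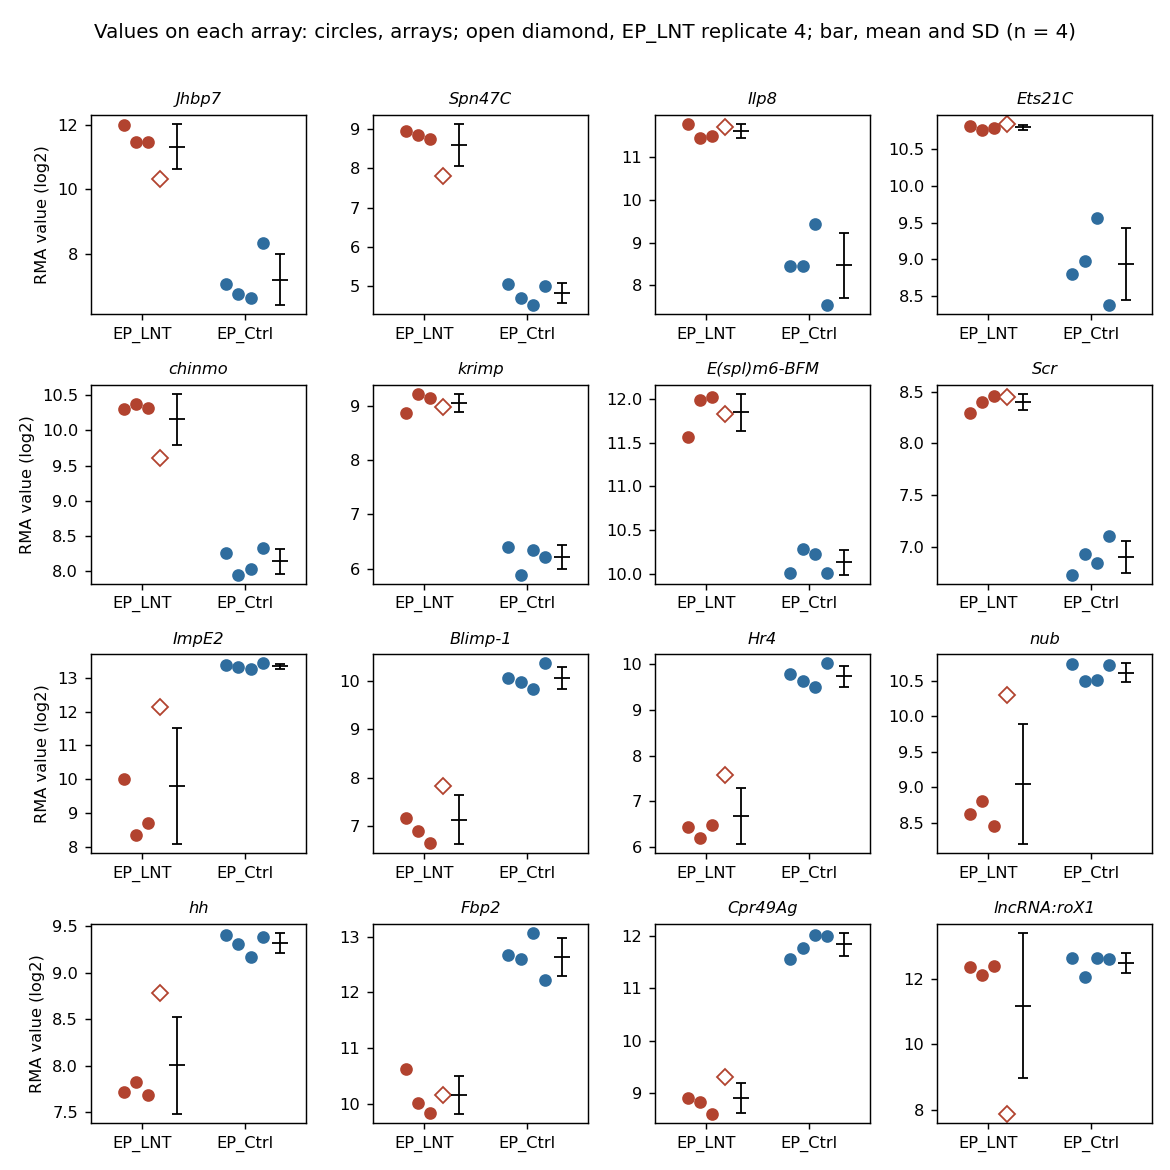
RMA values (log2) of 16 genes on each array, EP_LNT on the left and EP_Ctrl on the right of each panel; filled circles are arrays, the open diamond is EP_LNT replicate 4, and the bar to the right of each group gives its mean and SD (n = 4). Replicate 4 lies with the other tumors for Ilp8, Ets21C and Scr, between the groups for Jhbp7, Spn47C, chinmo, hh and nub, and far from all other arrays for lncRNA:roX1.

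Gene lists describe the change by function. For each list the number of measured members called in each direction is given, to be read against 12.1% higher and 10.0% lower among all genes. Most members named from a list are the called ones with the largest changes. Where their arrays do not overlap, that largely follows from this choice and is not a further result. Among all genes the share without overlap was 23.9%. Among the 26 lists of pathways and processes, those with the largest shares of higher members were Hox genes (3 of 4), basement membrane and extracellular matrix (12 of 20), JNK and stress signalling (13 of 22), and growth factor and hormone signals (17 of 33). The largest shares of lower members among these 26 were those of wing disc patterning (16 of 33), Dpp, Hedgehog and Wingless signalling (8 of 21), temporal and ecdysone genes (13 of 37), and heat shock and ER chaperones (6 of 18). Lists of cell type markers are given separately further on.

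**Figure D3:**
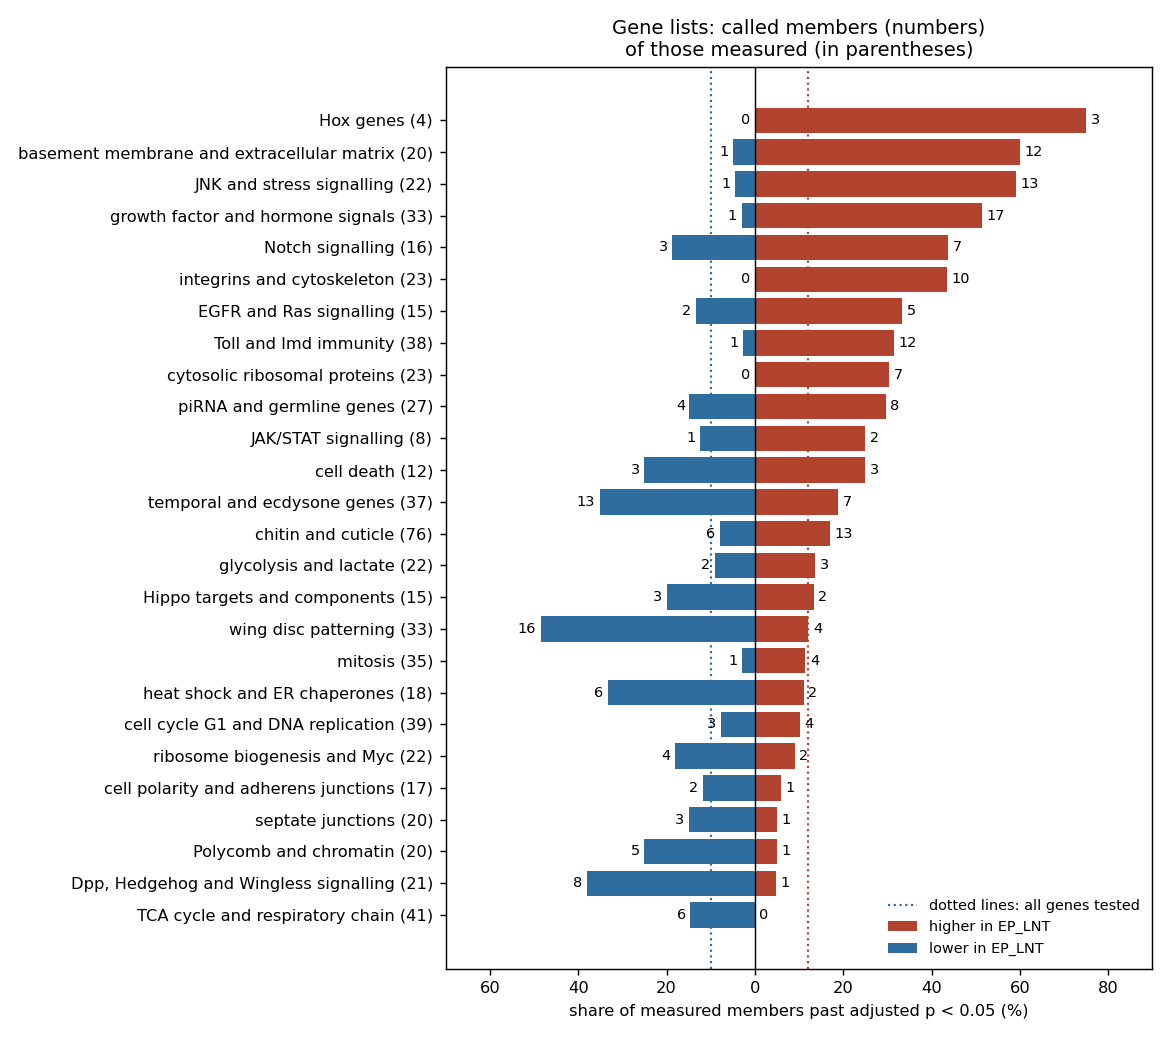
Share of the measured members of 26 gene lists that were called higher (red, to the right) or lower (blue, to the left) in EP_LNT than in EP_Ctrl, in percent, with the number called at the end of each bar and the number measured in parentheses. Dotted lines mark all genes tested, 12.1% higher and 10.0% lower; basement membrane genes stand at 12 of 20 higher and wing disc patterning genes at 16 of 33 lower.

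Among secreted signals, Ilp8 rose 8.90-fold. It read 11.78, 11.46, 11.51 and 11.72 in EP_LNT against 8.45, 8.44, 9.43 and 7.54 in EP_Ctrl (log2 3.15 ± 0.26, adjusted p = 3.78e-07). The tumor values were tight, with replicate 4 among them, and the spread lay in the 12 hr discs. Ilp8 averaged 8.46 in EP_Ctrl, 11.47 in EP_EHT at day 4 and 11.62 in EP_LNT at day 11, and the day 11 minus day 4 difference of 0.14 was not called (adjusted p = 0.836). Growth factor and hormone signals had 17 of 33 members higher, 1 lower and a median log2 difference of 0.36, against 0.01 over all genes. Pvf1, a PDGF- and VEGF-related ligand, rose 2.20-fold, with 9.74, 9.79, 9.82 and 9.36 in EP_LNT and 8.41, 8.76, 8.71 and 8.29 in EP_Ctrl. Unlike Ilp8 it was at 8.57 in the mean of EP_EHT, and the EP_LNT minus EP_EHT difference of 1.11 was called (adjusted p = 2.35e-05). The FGF ligand genes ths and pyr rose 2.0- and 1.98-fold, and their receptor gene htl rose 2.51-fold. Idgf1, an imaginal disc growth factor of the chitinase-like family, rose 3.37-fold, but replicate 4 at 7.64 fell below the highest 12 hr disc at 7.69, and without it the log2 difference of 1.75 was 2.16. btl, the FGF receptor gene of the trachea, was the member that fell, by 0.33 on the log2 scale, and it missed the threshold with E_EHT replicate 1 kept in the fit (adjusted p = 0.0804) and without any 1 of EP_LNT replicates 1, 2 or 3 or EP_Ctrl replicates 3 or 4.

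The list of EGFR and Ras signalling had 5 of 15 members higher and 2 lower, and the other 8 were not called. The largest rises were in genes that act back on the pathway. sty encodes Sprouty, an inhibitor of receptor tyrosine kinase signalling that the pathway itself induces. It read 11.54, 11.59, 11.67 and 11.52 in EP_LNT against 10.55, 10.57, 10.82 and 10.54 in EP_Ctrl (1.95-fold, adjusted p = 5.54e-05). aos, the gene of the secreted EGFR antagonist Argos, rose 1.66-fold, edl, an antagonist of the ETS repressor Yan, 1.68-fold, and Mkp3, a MAP kinase phosphatase gene, 1.25-fold. The ligand gene spi was the remaining rise, at 0.27 on the log2 scale, and kek1, another inhibitor of the receptor, was not called, at 0.38. None of sty, aos, edl and Mkp3 had overlapping arrays, and replicate 4 lay among or next to the other tumors for each. Both members that fell code for components upstream of MAP kinase: Sos, the exchange factor of Ras, by 0.31, and Dsor1, the MAP kinase kinase, by 0.27 on the log2 scale. The call of Sos was lost with E_EHT replicate 1 kept in the fit (adjusted p = 0.0837). sty, aos, edl and Mkp3 were also higher in EP_LNT than in EP_EHT, by 0.68 for sty (adjusted p = 0.00402), 0.63 for aos, 0.57 for edl and 0.36 for Mkp3.

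JNK and stress signalling had 13 of 22 members higher and 1 lower, with a median of 0.33. egr encodes Eiger, the TNF ligand that activates JNK, and read 10.46, 10.50, 10.55 and 9.44 in EP_LNT against 8.45, 8.69, 8.90 and 8.56 in EP_Ctrl (3.02-fold, adjusted p = 1.73e-05). Ets21C, a stress-induced ETS factor, rose 3.66-fold with tumor values of 10.81, 10.76, 10.79 and 10.84 against 8.80, 8.98, 9.56 and 8.38. ftz-f1, a nuclear receptor gene, rose 3.34-fold, and Atf3, a bZIP factor, rose 2.45-fold. On replicate 4, egr and Atf3 lay about 1 log2 unit below the other tumors, whereas Ets21C was level with them. The list shares Ilp8, Pvf1 and ImpL2 with the growth factor list.

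JAK/STAT signalling had 2 of 8 members higher and 1 lower, a share read from few genes. Its largest rise was that of chinmo, described with the temporal genes. upd2, a cytokine ligand of the pathway, rose 1.69-fold, with 7.77, 7.77, 8.02 and 8.11 in EP_LNT and 7.06, 7.19, 7.62 and 6.79 in EP_Ctrl. zfh2, a zinc finger homeodomain factor of the hinge and pouch, fell to 10.11, 10.40, 10.43 and 11.27 in EP_LNT, against 11.82, 11.53, 11.68 and 11.90 in EP_Ctrl (2.27-fold lower). Hippo targets and components had 2 of 15 higher and 3 lower. kibra and Mer, upstream activators of the pathway, rose 1.40- and 1.24-fold. ds, which encodes a protocadherin ligand of Fat, was 1.75-fold lower, and vg, the wing selector gene, 2.08-fold lower. mats, a cofactor gene of the Warts kinase, fell by 0.17 on the log2 scale, a call that was lost without EP_LNT replicate 1, 2 or 3 or EP_Ctrl replicate 1 or 2, in the 2-group fit and with arrays centred on their medians.

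Notch signalling had 7 of 16 members higher and 3 lower. The members that rose most were genes of the Enhancer of split complex, direct targets of Notch. E(spl)m6-BFM had 11.56, 11.98, 12.02 and 11.82 in EP_LNT against 10.02, 10.29, 10.23 and 10.02 in EP_Ctrl (3.26-fold, adjusted p = 3.97e-07). E(spl)m3-HLH, a bHLH repressor gene, rose 2.46-fold, E(spl)m7-HLH 1.79-fold, E(spl)mbeta-HLH 1.71-fold and E(spl)m4-BFM 1.52-fold. The arrays of the groups did not overlap for any of the 5, which largely follows from naming called members with the largest changes. All 5 were also called higher in EP_LNT than in EP_EHT, by 1.09, 0.79, 0.78, 0.62 and 0.55 on the log2 scale, where 4.49% of all genes were called higher. Other measured genes of the complex were E(spl)m5-HLH, E(spl)mdelta-HLH, E(spl)malpha-BFM and E(spl)m2-BFM. Against EP_Ctrl, each of these was not called or changed less than the 5 named. nub, described with the patterning genes, was among the members that fell.

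Temporal and ecdysone genes moved in both directions, with 7 of 37 higher and 13 lower. Ecdysone pulses drive the late larval and prepupal program of the disc through a cascade of nuclear receptors and transcription factors. Blimp-1, a zinc finger repressor of the cascade, fell to 7.17, 6.90, 6.65 and 7.83 in EP_LNT, against 10.06, 9.97, 9.83 and 10.36 in EP_Ctrl (7.57-fold lower, adjusted p = 0.000195). Hr3, a nuclear receptor gene, was 4.92-fold lower with tumor values of 6.55, 6.86, 7.08 and 7.72 against 9.26, 9.14, 9.32 and 9.67. ImpE1, an ecdysone-inducible gene like ImpE2, was 4.54-fold lower, with replicate 4 at 10.89 against 9.06 to 9.23 on the other tumor arrays. The groups did not overlap for these 3 genes, and replicate 4 was the tumor array nearest to the 12 hr discs for each. ftz-f1, a nuclear receptor gene of the same list that is described with the stress genes, went the other way. Its rise was 1.68 to 1.83 on the log2 scale under the alternatives run. None of Blimp-1, Hr3, Hr4, ImpE1 and ImpE2 was called between EP_LNT and EP_EHT, where the day 4 arrays spread widely: EP_EHT replicate 2 had 6.61 for Blimp-1 and 8.31 for ImpE2, against 7.91 to 8.80 and 12.36 to 12.50 on the other 3.

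chinmo, a BTB zinc finger gene that marks early larval states of disc cells, rose 4.05-fold. It read 10.31, 10.38, 10.32 and 9.61 in EP_LNT against 8.25, 7.95, 8.03 and 8.32 in EP_Ctrl (adjusted p = 3.79e-06), with no overlap. br, the BTB gene of the larval to pupal switch, was lower, at 10.82, 11.45, 11.36 and 11.90 against 12.12, 12.00, 12.10 and 12.27. Its log2 difference of -0.74 ± 0.24 (adjusted p = 0.0355) missed the threshold when any 1 of 7 of the 8 arrays was left out, the exception being EP_LNT replicate 4, without which it was -0.91, and also with E_EHT replicate 1 kept in the fit (adjusted p = 0.0746). Eip93F, a later factor of the same switch that was named after its values were seen, had a log2 difference of 1.14 (adjusted p = 0.000146).

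The Hox genes measured were pb, Dfd, Scr and Antp. Hox genes give segments their identity and are classical targets of Polycomb repression. Scr, of the labial and anterior thoracic segments, had 8.29, 8.40, 8.46 and 8.45 in EP_LNT and 6.73, 6.93, 6.84 and 7.10 in EP_Ctrl (2.84-fold, adjusted p = 1.02e-05). Dfd, of the head, had 8.51, 8.64, 8.81 and 8.77 against 7.52, 7.05, 7.18 and 7.32 (2.67-fold, adjusted p = 9.27e-07). These genes reached their day 11 levels at different times: Scr averaged 6.90 at 12 hr, 6.97 at day 4 and 8.40 at day 11, and Dfd averaged 7.27 at 12 hr, 8.86 at day 4 and 8.68 at day 11. Antp, the thoracic gene, rose by 0.32, a call that was lost without EP_LNT replicate 2 or 3 or EP_Ctrl replicate 2 and in the 2-group fit, and pb, at -0.09, was not called. Polycomb and chromatin genes had 1 of 20 members higher and 5 lower. Besides psq these were Trl, the GAGA factor, which fell by 0.40 on the log2 scale, the PRC2 partner gene Jarid2, which fell by 0.34, and the Brahma complex genes brm and mor, which fell by 0.30 and 0.23. ash2, a trithorax group gene, rose by 0.34. The call of Jarid2 was lost without EP_LNT replicate 1 or EP_Ctrl replicate 1 or 4, and that of brm without replicate 1 of either group. With E_EHT replicate 1 kept in the fit, Antp, Jarid2, brm and mor were not called (adjusted p = 0.154, 0.122, 0.101 and 0.0892).

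Genes that pattern the wing were lower in the tumors. Wing disc patterning had 16 of 33 members lower and 4 higher, with a median of -0.19 with replicate 4 and -0.40 without it. nub, a POU factor of the wing pouch, read 8.62, 8.80, 8.46 and 10.30 in EP_LNT against 10.74, 10.50, 10.51 and 10.72 in EP_Ctrl (2.98-fold lower, adjusted p = 0.000851). Its paralog pdm2 was 2.42-fold lower, with 7.24, 7.38, 7.24 and 8.82 against 9.01, 8.80, 8.80 and 9.20, and grn, a GATA factor gene, was 2.51-fold lower. For nub and pdm2, replicate 4 was far above the other tumors and close to the 12 hr discs, and for pdm2 it overlapped them. al, a homeobox gene of distal structures, was 2.16-fold lower. tup, a LIM homeodomain gene of the notum, went the other way and rose 2.12-fold, with 10.90, 11.00, 11.15 and 10.32 against 9.81, 9.75, 9.82 and 9.65.

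In the Dpp, Hedgehog and Wingless list, 8 of 21 members were lower and 1 higher. hh, the Hedgehog ligand gene of the posterior compartment, fell to 7.72, 7.83, 7.69 and 8.78 in EP_LNT, against 9.41, 9.31, 9.17 and 9.38 in EP_Ctrl (2.48-fold lower, adjusted p = 5.69e-05). The posterior selector genes en and inv were 1.93- and 1.41-fold lower. bi and salm, T-box and zinc finger targets of Dpp in the pouch, were 2.44- and 1.48-fold lower. The groups did not overlap for any of these 5 genes, a ligand, selectors and targets. They were named as called members with the largest changes, so this lack of overlap is not a further result. Of the 21 members, 12 were not called. A list of disc epithelium markers had 6 of 13 members lower and 1 higher. Its mean level was 9.62, 9.89, 9.85 and 10.20 on the EP_LNT arrays and 10.23 to 10.53 on the EP_Ctrl arrays. The members that fell were nub, zfh2, vg, rn, bs and grh. All but grh are also in the wing disc patterning list, so this is largely the same result. The epithelial genes shg, crb and ed were not called. In pooled tissue, fewer cells of a type and less RNA per cell cannot be told apart, and the part of cell composition in the fall of the patterning genes was not tested.

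Genes of proliferation changed little. Of 39 genes of G1 and DNA replication, 4 were higher and 3 lower, with a median of 0.03, and of 35 mitosis genes, 4 were higher and 1 lower, with a median of 0.09. The largest mitotic rise was tum, a centralspindlin gene, at 1.26-fold, followed by the kinesin gene ncd at 1.22-fold. The background share of called genes is 22.1%, against 17.9% in the replication list and 14.3% in the mitosis list. Cytosolic ribosomal proteins had 7 of 23 higher and none lower, but the rises were small, with RpL39 the largest at 0.37 and a call that was lost without EP_LNT replicate 1. Ribosome biogenesis genes had 2 of 22 higher and 4 lower, and the largest rise was Non1, a GTPase gene of large subunit assembly, at 1.90-fold.

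Calls covered 22.7% of glycolysis and lactate genes and 14.6% of TCA cycle and respiratory chain genes, against 22.1% of all genes. Glycolysis and lactate genes had 3 of 22 higher and 2 lower. Hph, the prolyl hydroxylase gene of oxygen sensing, rose 1.63-fold with 9.95, 10.33, 10.61 and 9.72 in EP_LNT against 9.49, 9.32, 9.38 and 9.59 in EP_Ctrl, and Hex-A, a hexokinase gene, rose 1.31-fold. Glut1, a sugar transporter gene, was 2.10-fold lower, with 7.25, 7.62, 7.34 and 8.25 in EP_LNT against 8.61, 8.70, 8.70 and 8.73 in EP_Ctrl. TCA cycle and respiratory chain genes had 6 of 41 lower and none higher, with mAcon1, a mitochondrial aconitase gene, the largest fall at -0.34 on the log2 scale.

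Polarity and junction genes had call shares near or under the background. Cell polarity and adherens junction genes had 1 of 17 higher and 2 lower. l(2)gl, a classical neoplastic tumor suppressor of cell polarity, was the member that rose, with 11.07, 11.05, 11.00 and 10.90 in EP_LNT against 10.72, 10.60, 10.75 and 10.73 in EP_Ctrl (1.24-fold), and dlg1, its partner, was 1.25-fold lower, a call lost with E_EHT replicate 1 kept in the fit (adjusted p = 0.117). Septate junction genes had 1 of 20 higher and 3 lower. Gli, which encodes Gliotactin of tricellular junctions, was 1.34-fold lower, vari, a scaffold gene, 1.27-fold lower, and nrv2, a Na+ pump subunit gene, 1.17-fold higher.

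Basement membrane and extracellular matrix genes had 12 of 20 members higher and 1 lower, with a median of 0.48. Tig, which encodes the integrin ligand Tiggrin, read 10.62, 10.41, 10.36 and 9.09 in EP_LNT against 8.32, 8.19, 8.77 and 7.92 in EP_Ctrl (3.53-fold, adjusted p = 0.000171). SPARC, a collagen-binding glycoprotein gene, rose 2.53-fold with 10.33, 10.39, 10.21 and 8.83 against 8.78, 8.62, 8.73 and 8.27. Ndg, the Nidogen gene, rose 1.82-fold, Timp, the metalloproteinase inhibitor gene, 1.84-fold, and Plod, a collagen lysyl hydroxylase gene, 1.63-fold. Replicate 4 was the lowest tumor array for all 5, and for Ndg and Timp it overlapped the 12 hr discs. tnc was the member that fell, by 1.46 on the log2 scale, and its call was lost when any 1 array other than EP_LNT replicate 4 was left out, with E_EHT replicate 1 kept in the fit and with a trended robust variance. Integrins and cytoskeleton genes had 10 of 23 higher and none lower. mys, the beta integrin gene, rose 1.37-fold with 12.28, 12.30, 12.39 and 12.15 against 11.81, 11.81, 11.90 and 11.79, rhea, the Talin gene, 1.5-fold and Pax, the Paxillin gene, 1.44-fold.

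Markers of haemocytes, the blood cells of the fly, moved with the matrix genes. Of 26 haemocyte genes, 16 were higher and none lower, and 21 were higher without replicate 4. The mean level of the list was 8.89, 8.92, 8.86 and 8.05 on the EP_LNT arrays and 8.0, 7.97, 7.88 and 7.73 on the EP_Ctrl arrays. Replicate 4 was just above the highest 12 hr disc and far below the other tumors. NimC1, a phagocytosis receptor gene of plasmatocytes, rose 3.67-fold, with 8.85, 8.82, 8.89 and 7.69 in EP_LNT and 6.80, 6.98, 6.86 and 6.11 in EP_Ctrl. The scavenger receptor gene Sr-CI rose 4.10-fold, the Nimrod gene NimC4 2.71-fold and He, a haemocyte surface gene, 2.40-fold. Hml, the Hemolectin gene, rose 1.98-fold, a call lost without EP_LNT replicate 1, 2 or 3 or EP_Ctrl replicate 4. The matrix list shares Col4a1, Pxn and vkg with the haemocyte list, and of its other 17 members 10 were higher and 1 lower, with a median of 0.33. Apart from the shared genes, the part of haemocytes in the matrix, growth factor and immune results was not tested.

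Toll and Imd immunity had 12 of 38 members higher and 1 lower, with a median of 0.26. Drs, the antifungal peptide gene Drosomycin, rose 5.23-fold but unevenly: 10.36, 7.56, 6.93 and 6.24 in EP_LNT against 5.30, 5.05, 6.29 and 4.91 in EP_Ctrl. Replicate 1 stood highest, replicate 4 lay within the range of the 12 hr discs, and the log2 difference of 2.39 was 1.52 without replicate 1 and 2.90 without replicate 4. It missed the threshold in a fit of the 2 groups alone (adjusted p = 0.0761). BomT2, another Bomanin gene, rose 3.50-fold, with 9.12, 7.67, 7.45 and 6.79 against 5.82, 6.03, 6.09 and 5.85. Genes of the signalling path also rose. Dif, an NF-kappaB factor of the Toll pathway, rose 2.28-fold with 8.96, 9.16, 9.06 and 8.87 in EP_LNT against 7.68, 8.02, 7.94 and 7.65 in EP_Ctrl (adjusted p = 1.13e-06), and PGRP-LB, an amidase gene that dampens Imd signalling, rose 1.87-fold. spz, the gene of the Toll ligand Spatzle, had 9.05, 8.80, 8.86 and 7.81 in EP_LNT against 7.71, 8.16, 7.92 and 7.42 in EP_Ctrl, and its log2 difference of 0.83 (adjusted p = 0.0172) missed the threshold in the 2-group fit and without EP_LNT replicate 1, 2 or 3 or EP_Ctrl replicate 4.

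The piRNA pathway silences transposons in the gonad. A list of piRNA and germline genes, which also holds bam, bgcn, osk, pgc and dhd, had 8 of 27 members higher and 4 lower, with none of those 5 called. Beside krimp, SoYb, a Tudor-domain gene, rose 3.26-fold, with 8.22, 8.47, 8.45 and 8.18 in EP_LNT against 6.70, 6.35, 6.63 and 6.82 in EP_Ctrl (adjusted p = 1.37e-08). del, the Deadlock gene, rose 2.57-fold (10.07, 10.22, 10.25 and 10.14 against 8.80, 8.75, 8.93 and 8.75), AGO3, an Argonaute gene, 2.34-fold and piwi 1.57-fold. cuff, the Cutoff gene, went the other way and was 1.89-fold lower, with 7.33, 7.32, 7.13 and 7.22 against 8.25, 8.16, 8.05 and 8.22. These 6 genes separated the groups with no overlap. For krimp that was a condition of its choice. SoYb, del, AGO3, piwi and cuff were named as called members with the largest changes, so it is not a further result for them either. Replicate 4 lay among or next to the other tumors for each of the 6. The day 4 tumors lay between for those that rose: krimp averaged 6.21 at 12 hr, 8.28 at day 4 and 9.05 at day 11, SoYb 6.63, 7.55 and 8.33, and del 8.81, 9.66 and 10.17. Of the 27 members, 15 were not called, among them aub, vas and rhi, at -0.16, -0.16 and -0.07.

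Small nucleolar RNAs, which guide the modification of ribosomal RNA, were higher more often than protein-coding genes. Of 228 on the array, 112 (49.1%) were higher and 10 lower, with a median log2 difference of 0.31, and only 13 rose at least 2-fold. Their mean level was 9.92, 10.0, 9.84 and 9.60 on the EP_LNT arrays and 9.60, 9.52, 9.49 and 9.50 on the EP_Ctrl arrays, so replicate 4 equalled the highest 12 hr disc. Without replicate 4 the count was 126 higher and 6 lower. Many of them have near-identical copies or lie within introns of other genes, so single members are uncertain. Protein-coding genes had 1444 of 12358 higher (11.7%) and 1297 lower.

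Heat shock and ER chaperone genes had 6 of 18 members lower and 2 higher. Hsc70-3, the BiP chaperone of the endoplasmic reticulum, fell to 9.20, 9.28, 9.34 and 9.41 in EP_LNT, against 10.02, 10.09, 10.02 and 10.04 in EP_Ctrl (1.66-fold lower, adjusted p = 2.86e-05). Gp93, the ER form of Hsp90, was 1.56-fold lower, and the disulfide isomerase genes Pdi and ERp60 were 1.33- and 1.31-fold lower. Hsp27, a small heat shock gene, was 2.02-fold lower, with replicate 4 the highest tumor at 13.01. Replicate 4 was the tumor array nearest to the 12 hr discs for all 5, and the groups did not overlap. Cell death genes had 3 of 12 higher and 3 lower. Corp, a p53 target that acts on p53 itself, rose 2.17-fold, Diap2, an inhibitor of apoptosis, rose 1.37-fold, and Dark, the Apaf-1 homolog, was 1.42-fold lower. The other called members, Buffy, p53 and Debcl, lost their calls under 6, 8 and 3 of 18 alternatives.

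Chitin and cuticle genes had 13 of 76 members higher and 6 lower, a share near that of all genes. The members changed in opposite directions by large amounts. Cpr49Ag, a cuticle protein gene, fell to 8.91, 8.82, 8.60 and 9.30 in EP_LNT, against 11.57, 11.77, 12.03 and 12.00 in EP_Ctrl (7.65-fold lower, adjusted p = 1.66e-08). Cht10, a chitinase gene, was 4.26-fold lower. Cpr64Ac, of the same cuticle family as Cpr49Ag, rose 3.57-fold, with 8.67, 9.42, 9.82 and 8.39 against 7.34, 7.06, 7.27 and 7.28.

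Markers of tissues that lie beside the disc were measured as well. Fat body genes had 5 of 14 members lower and 1 higher, with a list mean of 8.38 to 8.51 on the EP_LNT arrays and 8.97 to 9.29 on the EP_Ctrl arrays. Fbp2 had 10.63, 10.02, 9.85 and 10.16 in EP_LNT and 12.67, 12.59, 13.06 and 12.23 in EP_Ctrl (5.55-fold lower, adjusted p = 1.70e-06), Fbp1 was 5.83-fold lower and Lsp2, a larval serum protein gene, 3.04-fold lower. FASN1, a fatty acid synthase gene, was the member that rose, at 2.27-fold. Salivary gland genes had 3 of 14 lower and none higher, with a list mean of 6.91 to 7.61 in EP_LNT and 7.38 to 10.21 in EP_Ctrl. The glue gene Sgs3 had 6.72, 7.48, 9.08 and 7.20 against 8.82, 11.87, 12.30 and 10.06 and was not called (adjusted p = 0.0556), and the call of Sgs7 was lost without EP_LNT replicate 1 or 2 or EP_Ctrl replicate 2 or 3. The part of such tissue in the falls of Sgs8, Fbp2 and similar genes was not tested.

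Muscle genes had 6 of 19 lower and 2 higher, and here 1 disc array enlarged several of the falls. EP_Ctrl replicate 4 had a list mean of 9.14, against 7.46 to 8.08 on the other 12 hr arrays and 7.22 to 7.42 in EP_LNT. Mlc1, a myosin light chain gene, read 8.94, 7.98, 7.10 and 8.25 in EP_LNT against 10.04, 9.87, 11.14 and 12.70 in EP_Ctrl. Its log2 difference of -2.87 was -2.28 without EP_Ctrl replicate 4, and that of Mf, a myofilin gene, changed in the same way between -2.33 and -1.62. Markers of the myoblasts that lie on the notum rose instead: 5 of 10 were higher and 1 lower. twi, the Twist gene, had 10.94, 11.14, 11.24 and 10.75 in EP_LNT against 9.95, 10.02, 10.06 and 9.92 in EP_Ctrl (2.04-fold, adjusted p = 8.67e-07), Him rose 1.96-fold and zfh1 1.86-fold. The FGF receptor gene htl is in the myoblast list too, and the part of myoblasts in its rise was not tested. Gut genes had 1 of 22 higher and 3 lower, a call share of 18.2% against 22.1% of all genes. Their list means were 7.29, 5.62, 5.89 and 6.40 on the EP_LNT arrays against 6.36 to 7.14 in EP_Ctrl. Replicate 1 stood above and replicates 2 and 3 below all 12 hr arrays. Tracheal markers had 1 of 9 higher and 3 lower, and markers of neurons and glia 3 of 15 higher and 1 lower.

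**Figure D4:**
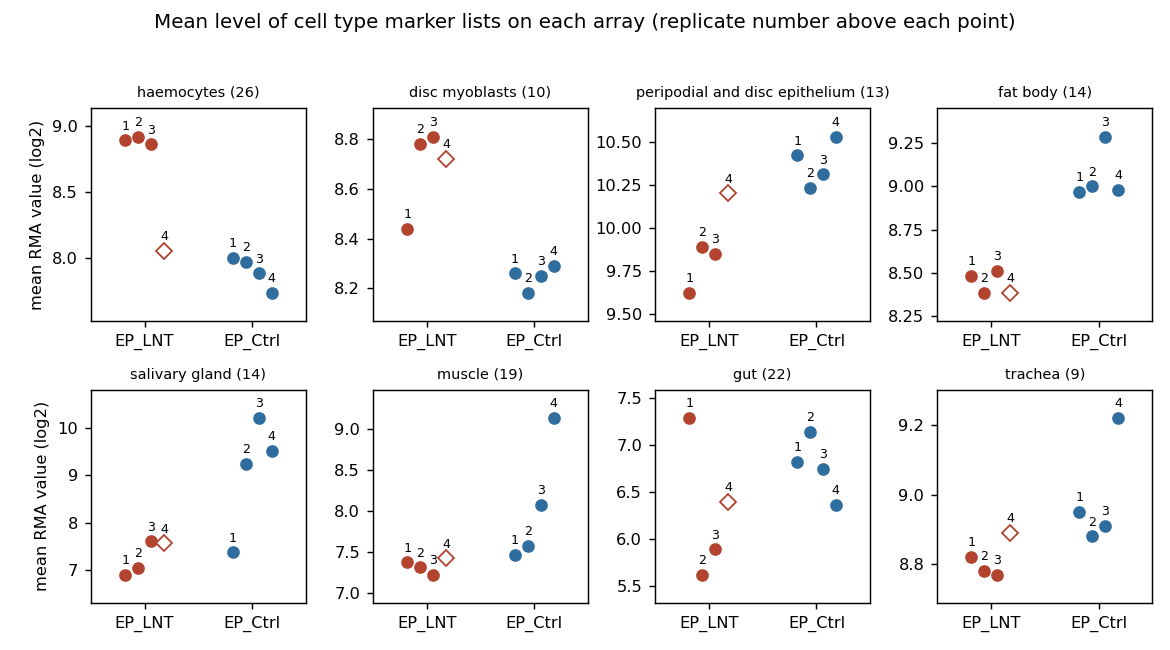
Mean RMA value (log2) of 8 lists of cell type markers on each array, EP_LNT on the left and EP_Ctrl on the right, with the replicate number above each point and the open diamond for EP_LNT replicate 4; the number of genes is in parentheses. Haemocyte means are 8.86 to 8.92 on 3 tumor arrays and 8.05 on replicate 4, fat body means separate the groups, and muscle is highest on EP_Ctrl replicate 4 at 9.14.

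Against the day 4 tumors of the same genotype, EP_LNT had 937 genes called (6.99%), 602 higher (4.49%) and 335 lower (2.5%). This count moved with single arrays: 1510 genes were called without EP_LNT replicate 4, and leaving out EP_LNT replicate 2 or 3 gave 560 or 539. It was 252 with only the 2 groups fitted, 605 with E_EHT replicate 1 kept and 1773 with array weights, so the calls named next hold for the fit of 19 arrays. Named rises that were also called against EP_EHT include Spn47C, by 2.34 on the log2 scale (adjusted p = 8.55e-06), CG11400 by 1.44, Scr by 1.43, NimC4 by 1.30, Pvf1 by 1.11, E(spl)m6-BFM by 1.09 and Dif by 0.72. Named falls called against EP_EHT include Fbp2 at -2.31, Cpr49Ag at -2.21, zfh2 at -1.01, hh at -0.92 and cuff at -0.90. For Ilp8, Ets21C, chinmo, egr, ftz-f1, Dfd, Hr4 and Blimp-1 the day 11 and day 4 tumors were not called different, with differences between -0.93 and 0.48, and the spread of these arrays does not show that they are equal. Chosen lists had the following counts against EP_EHT: Notch signalling 9 of 16 higher and 1 lower, haemocytes 11 of 26 higher and none lower, temporal and ecdysone genes 3 of 37 higher and 2 lower, and wing disc patterning 4 of 33 in each direction.

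EP_LNT replicate 4 lay apart in 3 ways. In general it lay closer to the earlier discs: its correlation over genes was 0.976 to 0.983 with the EP_Ctrl arrays, against 0.954 to 0.972 for EP_LNT replicates 1 to 3, and 0.972 to 0.990 with the EP_EHT arrays, against 0.969 to 0.982. Of 317 genes called at least 2-fold higher without it, replicate 4 showed a median of 51.4% of the change of the other 3 arrays (quartiles 27.9% and 70.7%), and 271 of them were nearer to EP_Ctrl on it than on any other tumor array. Of 230 genes at least 2-fold lower without it, the median was 50.5% (32.7% and 75.9%), and 183 were nearer to EP_Ctrl. Genes chosen in the same way without replicate 1, 2 or 3 had medians of 114%, 114% and 111% on that array for rises and 103%, 111% and 115% for falls. Among rises, the share nearer to EP_Ctrl on the array left out was 85.5% for replicate 4, against 6.61% to 12.8% for the others. Among falls it was 79.6% against 6.45% to 31.3%. With replicate 1, 2 or 3 left out, the arrays kept include replicate 4. Its smaller change enters the mean and the range that the left-out array is set against. The medians and shares of replicates 1, 2 and 3 are therefore not independent of replicate 4. Replicate 4 fell within the range of the 12 hr discs, or past it, for 57 of the 317 and 36 of the 230 genes. It was not the only uneven array, since replicate 1 lay outside the other 3 by at least 1 log2 unit for 141 genes, 134 of them higher, against 179 genes for replicate 4 (67 higher and 112 lower), 27 for replicate 2 and 15 for replicate 3.

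The change was not reduced for every gene on replicate 4. Ilp8, Ets21C, Scr, Dfd, CG11400, sty and the piRNA genes krimp and del lay there among or next to the other tumors. Of the calls, 1528 were made higher with and without it, 94.4% of those called with all 4 arrays and 84.6% of those called without it, and 1244 lower, 92.5% and 79.9%.

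Separately, the roX RNAs were low on this array. lncRNA:roX1 and lncRNA:roX2 are non-coding RNAs of the complex that raises X chromosome transcription in males. lncRNA:roX1 read 12.36, 12.14, 12.39 and 7.87 in EP_LNT against 12.66, 12.05, 12.66 and 12.61 in EP_Ctrl. lncRNA:roX2 read 8.96, 8.74, 9.12 and 4.86 against 9.04, 8.52, 9.22 and 8.84. Every array of both groups apart from replicate 4 was high for both RNAs. Neither was called with all arrays (adjusted p = 0.195 and 0.331), and without replicate 4 their log2 differences were -0.20 and 0.04. Of the 4 genes measured in the dosage compensation list, which also holds msl-2 and dsx, 1 was lower and none higher. It was dsx, the Doublesex gene of sexual differentiation, at -0.67 on the log2 scale (adjusted p = 0.00129, limma), with 8.0 on replicate 4 against 7.39 to 7.64 on the other tumors and 8.19 to 8.58 in EP_Ctrl. The 2014 X-linked genes had a median difference between replicate 4 and the mean of the other tumors of 0.05, against 0.02 for 10893 autosomal genes.

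Single genes on replicate 4 were named after their values were seen, as those farthest from the other tumors. The prophenoloxidase genes PPO1 and PPO2 of crystal cells read 11.03, 11.41, 10.99 and 7.71, and 11.61, 11.99, 11.57 and 8.46 in EP_LNT, against 8.30 to 9.07 and 9.14 to 9.82 in EP_Ctrl, so replicate 4 was below all 12 hr discs for both. Neither was called with all 4 arrays, at 1.73 and 1.57 on the log2 scale (adjusted p = 0.0653 and 0.0742). Without replicate 4 their log2 differences were 2.58 and 2.38. Both genes were named for their distance on that array, so the larger differences follow from that choice. CG13135 read 11.39, 10.54, 10.39 and 6.31, and Jig 12.45, 11.11, 10.32 and 7.44, against 6.16 to 6.37 and 7.33 to 7.50 in EP_Ctrl. On replicate 4 these genes sat at the level of the 12 hr discs. In the other direction, the cuticle gene Cpr49Ah read 9.15, 9.21, 9.18 and 12.06 in EP_LNT against 8.94 to 10.05 in EP_Ctrl, higher on replicate 4 than on any array of either group.

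**Figure D5:**
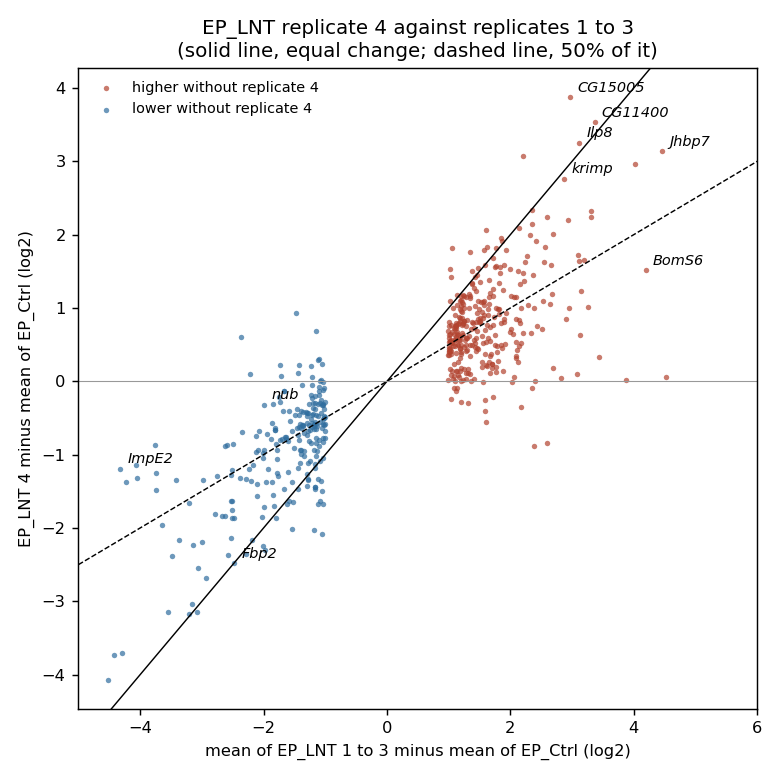
For the 317 genes at least 2-fold higher (red) and the 230 at least 2-fold lower (blue) in EP_LNT replicates 1 to 3 than in EP_Ctrl, the mean log2 difference of those 3 arrays from EP_Ctrl is on the x axis and that of replicate 4 on the y axis. Most genes lie between the zero line and the solid line of equal change, near the dashed line at 50%, while CG11400, Ilp8, krimp and CG15005 lie at or above the solid line or close to it.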

How the data were processed

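Total RNA of wing discs was labelled and hybridized on Affymetrix arrays, and the values used are those of the deposited series matrix. The authors deposited log2 values. The submitters' processing notes name RMA, and limma with no role, without versions. RMA as usually run corrects background, quantile-normalizes and summarises probes, so shifts common to all genes of an array are removed. The array's probe annotation gave 1 symbol for 13441 of 16322 probe sets, several for 555 and none used here for 2326. Where several probe sets carried the symbol of a gene (37 genes), the brightest on average was kept, which left 13402 genes, and 13064 gene IDs matched RefSeq.

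A group-means model was fitted with limma 3.58.1 in R 4.3.3 to 19 arrays of all 5 groups (14 residual and 2.63 prior degrees of freedom), without E_EHT replicate 1, which the submitters set aside. Contrasts were EP_LNT minus EP_Ctrl and EP_LNT minus EP_EHT, two-sided, with Benjamini-Hochberg adjustment over all genes and a threshold of 0.05. EP_LNT minus EP_EHT also equals the difference between the day 11 and day 4 changes from the shared EP_Ctrl arrays. On simulated data with these spreads, 67 genes changed 1.5-fold, 67 changed 2-fold and 66 changed 4-fold, of 13402. The EP_LNT minus EP_Ctrl test recovered 85.1%, 97.0% and 95.5% of them in turn, with 3.65% false among the calls. In the arrays themselves 22.1% of genes were called and EP_LNT replicate 4 stood apart. The rate of recovery and of false calls under those conditions was not tested. Fold changes of RMA values are usually compressed. Among the 19 arrays no pair of the same group was a copy: the lowest SD of a difference was 0.225.

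Genes named are psq and Egfr, the 15 largest rises and 15 largest falls that were called, at least 2-fold and without overlapping arrays, up to 6 called members with the largest change of each of 36 gene lists (819 of 1067 entries measured), and a short set of markers such as Ilp8, chinmo, br and the roX RNAs; others are said to be named after their values were seen. The comparison, the lists and the markers were chosen with earlier results of these data known. Alternatives were a fit of the 2 groups alone, E_EHT replicate 1 kept, further quantile normalization, median centring, removal of the dimmest 25% of genes, a trended robust variance, array weights, the mean of the probe sets of a gene, all probe sets tested, the replicate number as a block, and each replicate left out. No genome build is named for the array, so no coordinates are given.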

Additional observations from a re-analysis of the deposited data

Results flagged for a closer look

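Among 205 named genes in both groups (410 sets of 4 arrays), 46 sets had 1 array that stood off from the other 3 by most of the range of the set, above Dixon's critical share. The range itself can be small, as for COX5B and Pdi. Chance gives about 1 in 20 such sets. EP_LNT replicate 4 was the distant array in 29 of the 46, EP_LNT replicates 1 and 2 in 2 and 1, and EP_Ctrl replicates 1 to 4 in 1, 5, 6 and 2.

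On EP_LNT replicate 4 the roX RNAs were farthest off, with lncRNA:roX1 at 7.87 against 12.14 to 12.39 on the other tumors and lncRNA:roX2 at 4.86 against 8.74 to 9.12. Haemocyte genes were low there: Sr-CI at 10.26, NimC1 at 7.69, CG4250 at 10.32 and Hml at 8.51. So were some genes of secreted signals and stress, with egr at 9.44, Atf3 at 9.90, Pvf1 at 9.36, Idgf1 at 7.64, ths at 10.61 and pyr at 9.80, whereas Ilp8 at 11.72 and upd2 at 8.11 were not low there. Of the largest rises, CG43103 read 9.09, CG10559 8.58, Jhbp1 8.63, CG34437 5.52 and Tsp42El 10.05. Low values were also found for chinmo at 9.61, SPARC at 8.83, Pax at 9.39, moody at 9.0, Lcp65Af at 5.65, Ns2 at 9.34 and RpL17 at 9.76. Replicate 4 was the high array for hh at 8.78, pdm2 at 8.82, ImpE1 at 10.89, tnc at 11.06 and pio at 10.95.

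On the other tumor arrays, replicate 1 was high for p53 at 8.69 and low for Zasp52 at 10.80, and replicate 2 was low for CG42500 at 6.28. In EP_Ctrl, replicate 4 had 7.45 for CG8664, against 10.33 to 10.65 on the other discs, and 7.67 for Timp. Replicate 3 was high for BomS6 at 5.20, CG9192 at 7.68 and sty at 10.82, and low for E(spl)mbeta-HLH at 8.86, Nnp-1 at 9.61 and COX5B at 11.84. Replicate 2 was high for Buffy at 7.13 and low for ftz-f1 at 8.47, Gli at 10.10, vvl at 11.30 and lncRNA:roX1 at 12.05, and replicate 1 was high for Pdi at 12.11.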

How the results depend on the processing

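The count of genes called between EP_LNT and EP_Ctrl stayed within 1.5 times of 1618 higher and 1345 lower under every alternative run, from 1321 to 1806 higher and 1005 to 1557 lower when 1 replicate was left out. Between EP_LNT and EP_EHT it did not. The total of 937, with 602 higher and 335 lower, was 252, 184 and 68 with only the 2 groups fitted and 1773, 1063 and 710 with array weights. With E_EHT replicate 1 kept the total was 605, with 170 lower. Leaving out 1 replicate gave totals of 539 to 1510, 381 to 904 higher and 158 to 606 lower. The 2-group fit has fewer residual arrays, and the cause of the other shifts was not tested. Of 201 named genes that were called, 143 were called under every alternative, and 58 lost the call under at least 1, with no change of sign. E_EHT replicate 1 kept ended 29 calls, the 2-group fit 35, median centring 14, the replicate block 3 (Eig71Ee, Klp10A and RpS28b), further quantile normalization 2 and trended robust variance 1. Leaving out 1 replicate ended 5 (EP_LNT replicate 4) to 34 (EP_LNT replicate 2). Array weights moved ImpE2 to -4.24, yip7 to -4.54, Jon65Aiii to -4.47, Jon65Aiv to -4.08, CG31789 to -4.08, CG14302 to -4.04 and Sgs7 to -3.44. lncRNA:roX2, not called, read -0.98 with all arrays, and leaving out 1 replicate gave -1.38 to 0.04 (0.04 without EP_LNT replicate 4), and Sgs3 was called in the 2-group fit (adjusted p = 0.0296), with dim genes removed (0.0460) and without EP_Ctrl replicate 1 (0.0347). Replicate numbers did not pair the EP_LNT and EP_Ctrl arrays as a set, since the deviations of same-numbered arrays correlated at -0.02, -0.17, -0.01 and 0.08. For EP_LNT and EP_EHT the correlations were -0.34, 0.01, -0.02 and 0.33. EP_LNT replicate 4 had its highest correlation with replicate 4 of both groups. With a replicate block 1645 genes were higher and 1404 lower in EP_LNT than in EP_Ctrl. Differences of the brightest and dimmest genes may be understated, and 4 arrays a group limit what can be seen.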
